A study of Caenorhabditis elegans with 92 samples.

Results

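The 45 genes described here lie at the right end of Caenorhabditis elegans chromosome III. They are the rows of both deposited RNA-seq tables whose sequence name begins with Y37D8A., Y39E4A., Y39E4B., F53A2., T05D4., BE10., F14F7. or W06F12., the names of 8 genomic clones, and whose mean level over the 6 larval libraries was at least 1 FPKM (fragments per kilobase of transcript, scaled to the mapped reads of each library). Of 20376 genes in the tables, 67 carried 1 of these names and 45 reached the minimum. All 45 were found in the RefSeq gene table as protein-coding genes of chromosome III, and their order along the chromosome was taken from it. The region was proposed because these genes differed between the 2 larval groups, so the ratios below are a description and no test of them is made.

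Worm genes without a name are called by the genomic clone that holds them and a number within it, and genes that sit side by side on a chromosome need share no function. Worm strains with a lethal or sterile mutation are kept as heterozygotes over a balancer, a rearranged chromosome that suppresses recombination with its normal partner. The balancer hT2 is a reciprocal translocation between chromosomes I and III. The 45 genes include enzymes of energy metabolism, regulators of chromatin and translation, neuronal genes, secreted and membrane proteins, and a collagen.

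The larvae came from strain VC768, which carries the deletion kle-2(ok1151) on chromosome III over hT2. The balancer bears bli-4(e937), let-?(q782) and the GFP marker qIs48. KLE-2 is a subunit of condensin II, a complex that compacts chromosomes. For each of 6 libraries about 500 larvae at L2 to L3 were picked by hand from synchronized cultures. The 3 het libraries are GFP-positive heterozygotes with the balancer, and the 3 homo libraries are GFP-negative homozygotes that had KLE-2 only from their mothers. The kle-2 genotype and the balancer differed together between the groups, so their parts in any difference cannot be told apart. A further 5 libraries were made from mixed stage embryos of the wild-type strain N2, which carries neither the deletion nor hT2. The labels do not say whether replicates came from separate cultures, so the spread between them may be technical.

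The tables hold no read totals. Steps of 1 read among values under 1 FPKM gave larval depths of 0.687 to 1.35 relative to the first het library, and embryo depths of 0.853 to 2.10 relative to the first embryo library. The depth found this way for embryo library 4, 1.755, did not match the mapped reads that the authors list for it. These depths are therefore approximate. The kle-2 transcript was measured at 7.83, 10.0 and 12.8 FPKM in het and at 3.54, 4.24 and 6.59 FPKM in homo larvae. The groups did not overlap, with p = 0.1 in a two-sided exact permutation test, the smallest that 3 against 3 samples allow. The part of the gene removed by the deletion was not examined. Among genes of other stages or tissues, 13 of 14 listed moulting and cuticle genes were tested. The list summed to 8296, 11674 and 2273 FPKM in the het libraries and to 3225, 6075 and 1199 FPKM in the homo libraries. The groups overlapped for each tested gene, but the homo sum was the lower in each replicate number. Of 12 listed germline genes 11 were tested, the list summed to between 122 and 146 FPKM in het and between 166 and 209 FPKM in homo, and 9 genes had all homo above all het values. Over all genes tested, 7.29% had all homo above all het values. Only 2 of 6 vitellogenin genes reached the minimum, and the list summed to at most 9.16 FPKM in any larval library. The part of larval stage and germline in the values below was not tested. In RNA from whole animals, fewer cells of a type and less RNA per cell cannot be told apart.

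Most of the 45 genes were close to 2-fold higher in homo larvae. The median ratio of homo to het mean FPKM was 1.85, a log2 ratio of 0.89, against -0.01 over all 12837 genes tested (mean of at least 1 FPKM). All 3 homo values lay above all 3 het values for 32 of the 45 genes, and no gene had all homo values below. Over all genes tested these shares were 7.29% and 5.22%. A log2 ratio between 0.5 and 1.5 was found for 34 of the 45 genes and for 8.48% of all genes tested. The remaining 11 genes are exceptions to a 2-fold ratio, 9 below this range and 2 above it. The background was 90.6% below the range and 0.919% above it.

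Summed over the 45 genes, the level was 2503, 2078 and 2199 FPKM in the het libraries and 5407, 4647 and 4688 FPKM in the homo libraries. Without the collagen gene col-98, the member with the highest mean in homo larvae, the sums were 2094, 1855 and 1905 FPKM in het and 3623, 3376 and 3513 FPKM in homo. The sums of the groups were far apart with and without this gene. None of the 45 genes was at 0 in any of the 11 libraries.

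**Figure D1:**
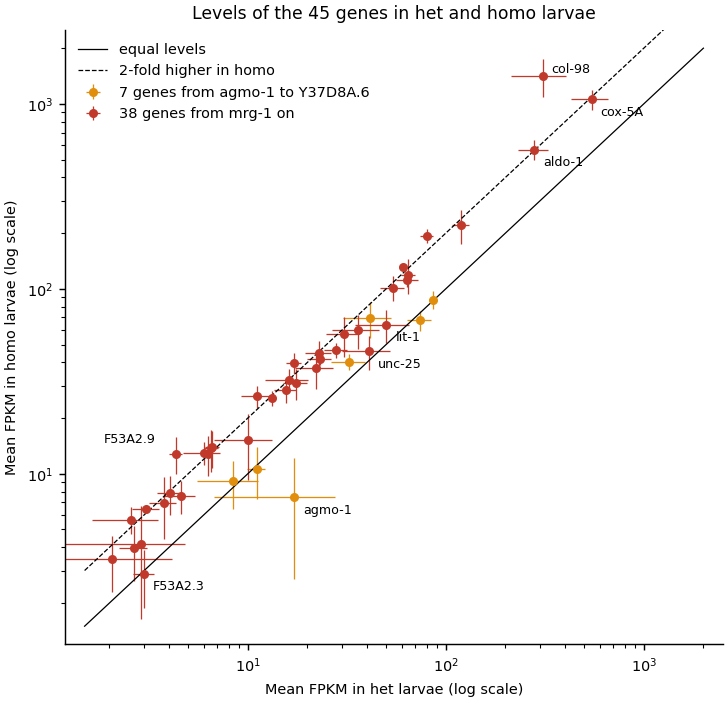
Mean FPKM in het (x axis) and homo larvae (y axis), both on log scales, for each of the 45 genes, with bars for the SD over 3 libraries. The solid line marks equal levels and the dashed line 2-fold higher levels in homo. Genes from mrg-1 on (red) lie along the dashed line from levels under 10 FPKM to over 500 FPKM, apart from 5 exceptions, and 6 of the 7 genes to the left of mrg-1 (orange) lie nearer the solid line or under it. Horizontal bars of bre-2 and tsp-3 run past the left edge.

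The exceptions were not scattered evenly along the chromosome. The first 7 members in gene order, from agmo-1 to Y37D8A.6, had a median log2 ratio of 0.01, and 6 of them were below 0.5. The 38 members from mrg-1 rightwards had a median of 0.90. Of these 38 genes 33 lay between 0.5 and 1.5, 3 below and 2 above, and 31 had non-overlapping groups. The boundary falls within clone Y37D8A, between Y37D8A.6 and mrg-1 (Y37D8A.9). This division was chosen after the values were seen. Among the 38 genes the log2 ratios had an SD of 0.37 between genes, or 0.30 without col-98, and 30 lay between 0.7 and 1.3. Across these 38 genes, which share the same 6 libraries, the log2 ratio had a Spearman's rho of 0.14 with mean larval FPKM and a Pearson's r of 0.34 with its log2.

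**Figure D2:**
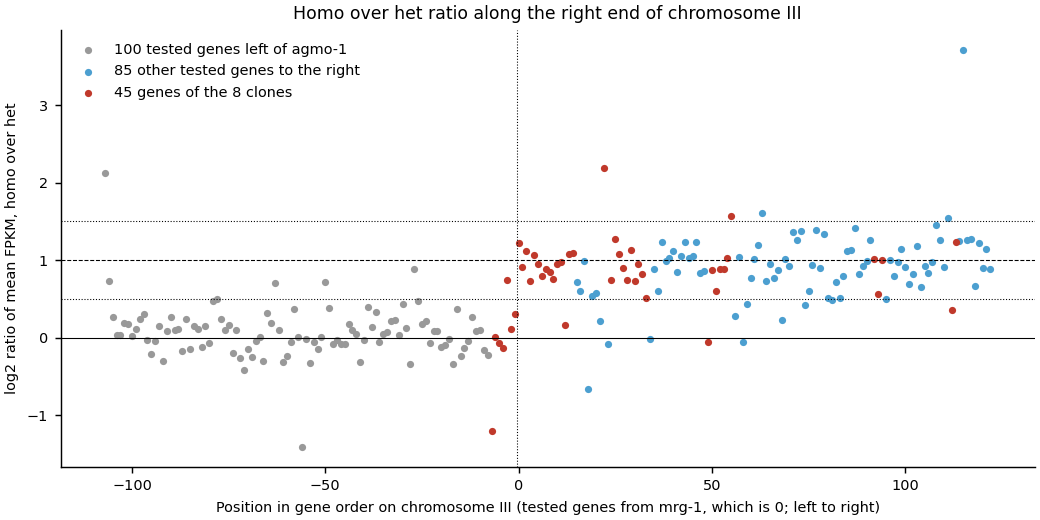
Log2 ratio of mean FPKM in homo over het larvae (y axis) against position in gene order on chromosome III (x axis, tested genes counted from mrg-1). Grey points are the 100 tested genes left of agmo-1, red points the 45 genes and blue points the 85 other tested genes to the right. The grey points lie around 0 (median 0.07), and the blue and most red points from mrg-1 on around 0.9 (medians 0.92 and 0.90). Dotted horizontal lines mark 0.5 and 1.5, and the dashed line marks 1, a 2-fold ratio.

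At the left edge, agmo-1 (BE10.2), which encodes an alkylglycerol monooxygenase, an enzyme that cleaves ether lipids, was the member with the lowest ratio. It was measured at 15.7, 28.4 and 7.57 FPKM in het and 4.94, 12.9 and 4.50 FPKM in homo larvae. The groups overlapped, because het library 3 was low, but within each replicate number the homo value was the lower, and the log2 ratio of the means was -1.21. The next gene, arx-5 (Y37D8A.1), encodes a subunit of the Arp2/3 complex that nucleates branched actin. Its levels were 91.2, 83.6 and 85.3 FPKM in het and 76.5, 91.9 and 93.6 FPKM in homo larvae, a log2 ratio of 0.01. The values of arx-5 in the 2 groups were intermixed.

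The following genes have no name beyond their clone. Y37D8A.25 was at 10.4, 10.3 and 12.5 FPKM in het and 7.74, 9.91 and 14.2 FPKM in homo, a log2 ratio of -0.06. Y37D8A.2 was at 62.2, 82.1 and 77.4 FPKM in het and 58.4, 69.8 and 74.6 FPKM in homo, a log2 ratio of -0.13. Both genes had overlapping groups, and their gene models overlap each other. Y37D8A.3 differed from its neighbours. It was at 28.4, 47.9 and 48.2 FPKM in het and 51.7, 77.0 and 80.3 FPKM in homo, so that every homo value was above every het value and the log2 ratio was 0.75. Y37D8A.4, whose model overlaps that of Y37D8A.3, was at 7.69, 11.5 and 6.00 FPKM in het and 9.07, 11.7 and 6.49 FPKM in homo, a log2 ratio of 0.11. Y37D8A.6 was at 25.5, 34.5 and 37.9 FPKM in het and 35.9, 41.2 and 43.9 FPKM in homo, a log2 ratio of 0.31. The lowest homo value of Y37D8A.6 lay just under the highest het value.

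The series of 2-fold ratios began with mrg-1, which encodes a chromodomain protein of the MRG15 family needed in the germline. It was at 16.9, 15.8 and 18.6 FPKM in het and 40.6, 34.5 and 44.4 FPKM in homo larvae. The groups were well apart, with means of 17.1 ± 1.41 and 39.8 ± 4.98 FPKM (SD, n = 3 each) and a log2 ratio of 1.22.

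To the right of mrg-1, 3 genes stood below the 2-fold series. The first was unc-25 (Y37D8A.23), which encodes glutamic acid decarboxylase, the enzyme that makes the neurotransmitter GABA. It was at 37.5, 32.1 and 53.7 FPKM in het and 40.1, 40.6 and 57.1 FPKM in homo larvae, a log2 ratio of 0.16. Its replicate 3 was the highest in both groups and the groups overlapped. The genes on either side of it along the members, epg-3 and ttm-1, had log2 ratios of 0.98 and 1.08. The second, F53A2.3, was among the 2 members with the lowest larval levels. It was at 2.81, 2.77 and 3.40 FPKM in het and 1.82, 2.99 and 3.82 FPKM in homo, a log2 ratio of -0.06 with the homo values on both sides of the het values. The third was lit-1 (W06F12.1), the Nemo-like kinase that acts with the Wnt pathway in asymmetric cell division. It was at 48.3, 65.9 and 35.9 FPKM in het and 59.9, 78.8 and 53.4 FPKM in homo larvae, a log2 ratio of 0.36. For lit-1 the spread between libraries of 1 group was wider than the difference, but the homo value was the higher in each replicate number. Its neighbour W06F12.2, the last member along the chromosome, was at 9.79, 10.3 and 13.4 FPKM in het and 22.5, 27.1 and 29.3 FPKM in homo, a log2 ratio of 1.23 with groups that did not overlap.

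Above the range stood col-98 and F53A2.9. The collagen gene col-98 (F14F7.1) was at 409, 223 and 294 FPKM in het and 1784, 1271 and 1175 FPKM in homo larvae. The lowest homo value was more than 2-fold above the highest het value, and the ratio of means was 4.57, a log2 ratio of 2.19. Collagens are secreted into the cuticle, many of them at set times of the moulting cycle. The summed level of the moulting and cuticle list given above was lower in the homo library of each replicate number, and its part in the values of col-98 was not tested. F53A2.9 was at 3.97, 4.56 and 4.50 FPKM in het and 9.54, 14.9 and 14.2 FPKM in homo, a log2 ratio of 1.57 with groups that did not overlap. Its gene model overlaps that of mtm-6.

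The 5 members nearest a 2-fold ratio were osm-7, aldo-1, epg-3, mtm-6 and snpc-1.2. The gene osm-7 (T05D4.4) encodes a secreted protein that acts with Notch signalling in the response to osmotic stress. It was at 13, 14.8 and 20.7 FPKM in het and 27.0, 34.7 and 35.3 FPKM in homo larvae, a log2 ratio of 1.00. The glycolytic enzyme aldolase, aldo-1 (T05D4.1), was at 334, 246 and 258 FPKM in het and 643, 512 and 545 FPKM in homo, a log2 ratio of 1.02. The homo values of both genes lay above all het values. The autophagy gene epg-3 (Y37D8A.22) had means of 22.9 ± 3.52 and 45.0 ± 7.28 FPKM and a log2 ratio of 0.98. The myotubularin phosphatase mtm-6 (F53A2.8) had means of 6.28 ± 0.147 and 12.9 ± 3.10 FPKM and a log2 ratio of 1.03. The gene snpc-1.2 (Y39E4B.2), named for a complex that activates small nuclear RNA genes, had means of 4.05 ± 0.594 and 7.87 ± 1.86 FPKM and a log2 ratio of 0.96. These errors are SDs over 3 libraries, and none of the 3 genes had overlapping groups.

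Genes of energy metabolism were among the highest members in larvae. The cytochrome c oxidase subunit gene cox-5A (Y37D8A.14) was at 677, 487 and 470 FPKM in het and 1204, 1022 and 941 FPKM in homo, a log2 ratio of 0.96. The thiolase gene acaa-2 (F53A2.7), of fatty acid oxidation, was at 121, 107 and 130 FPKM in het and 213, 180 and 270 FPKM in homo, a log2 ratio of 0.89. Both had all homo values above all het values. With col-98, aldo-1 and pqn-83 they were the 5 highest members by mean over the 6 larval libraries. The gene pqn-83 (Y39E4B.3), which encodes a protein rich in glutamine and asparagine, was at 86.6, 74.9 and 78.8 FPKM in het and 210, 196 and 176 FPKM in homo, a log2 ratio of 1.28.

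Members named for a role known in advance included further genes with log2 ratios inside the range. The cap-binding factor gene ife-1 (F53A2.6), a form of eIF4E found in the germline, was at 70.0, 59.9 and 63.7 FPKM in het and 139, 91.2 and 128 FPKM in homo, a log2 ratio of 0.89. The ribosome recycling factor abce-1 (Y39E4B.1) was at 26.8, 36.0 and 45.9 FPKM in het and 50.8, 54.9 and 74.4 FPKM in homo, a log2 ratio of 0.73. The groups did not overlap for either gene, although those of abce-1 lay close together. The gene unc-71 (Y37D8A.13), which encodes an ADAM protein of axon guidance, was at 3.43, 2.53 and 3.25 FPKM in het and 6.42, 6.25 and 6.61 FPKM in homo, a log2 ratio of 1.07. The dynein-associated gene nud-1 (F53A2.4) was at 13.4, 16.0 and 17.2 FPKM in het and 23.9, 32.6 and 28.8 FPKM in homo, a log2 ratio of 0.87. The gene gly-5 (Y39E4B.12), whose product adds N-acetylgalactosamine to proteins, was at 14.7, 19.2 and 18.5 FPKM in het and 24.7, 36.4 and 31.6 FPKM in homo, a log2 ratio of 0.82. For unc-71, nud-1 and gly-5 all homo values were above all het values.

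The log2 ratio of Y37D8A.16 was 0.89, from means of 30.6 ± 5.81 and 56.8 ± 13.8 FPKM (SD, n = 3 each) with groups that did not overlap. The tetraspanin gene tsp-3 (Y39E4B.4) was at 2.09, 1.55 and 5.08 FPKM in het and 2.83, 2.59 and 7.05 FPKM in homo, a log2 ratio of 0.52 just inside the range. Its replicate 3 was the highest in both groups, which overlapped. The glycosyltransferase gene bre-2 (Y39E4B.9), named for resistance to a Bacillus thuringiensis toxin, was the member with the lowest larval mean, 2.76 FPKM. It was at 0.346, 1.5 and 4.34 FPKM in het and 2.71, 2.87 and 4.80 FPKM in homo, a log2 ratio of 0.74 with overlapping groups.

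The remaining 15 members had log2 ratios of 0.57 to 1.14, and 13 of them had non-overlapping groups. They are given here so that each gene is accounted for. Genes of RNA, chromatin and the nuclear pore were cec-7 (chromodomain protein) with a log2 ratio of 1.12, rbm-7 (RNA-binding) with 0.95 and npp-25 (nucleoporin) with 0.84. Mitochondrial genes were bckd-1A (branched-chain ketoacid dehydrogenase) with 1.10 and mrps-10 (mitochondrial ribosome) with 0.75. Genes of the secretory pathway and membranes were spcs-2 (signal peptidase subunit) with 0.91, dhhc-8 (palmitoyltransferase) with 1.08 and ttm-1 (zinc transporter) with 1.08. The neuropeptide gene flp-14 had a log2 ratio of 0.80, and zig-8, which encodes a secreted immunoglobulin-domain protein, had 0.90. The others were Y39E4B.10 with 1.14, Y39E4B.6 with 0.75, enu-3.5 with 0.73, dro-1 with 0.60 and exc-12 with 0.57. The groups overlapped only for dro-1 and exc-12 among these 15.

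The ratios were also taken within each replicate number, since libraries of the same number deviated together. Over the 45 genes the median log2 ratio was 0.82 for replicate 1, 0.89 for replicate 2 and 0.78 for replicate 3. The medians over all genes tested were -0.03, 0.02 and 0.005. The homo value was the higher in all 3 numbers for 40 genes and the lower in all 3 for 2 genes, agmo-1 and Y37D8A.2. The other 3 genes, arx-5, Y37D8A.25 and F53A2.3, were mixed. Of the 38 genes from mrg-1 on, 37 had 3 ratios above 0, with F53A2.3 as the exception. These counts were not taken over all genes tested, and the genes were chosen on this contrast, so nothing is read from them. Single genes spread by a median SD of 0.16 over the 3 numbers. The widest spread was that of bre-2, at 2.97, 0.93 and 0.14.

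**Figure D3:**
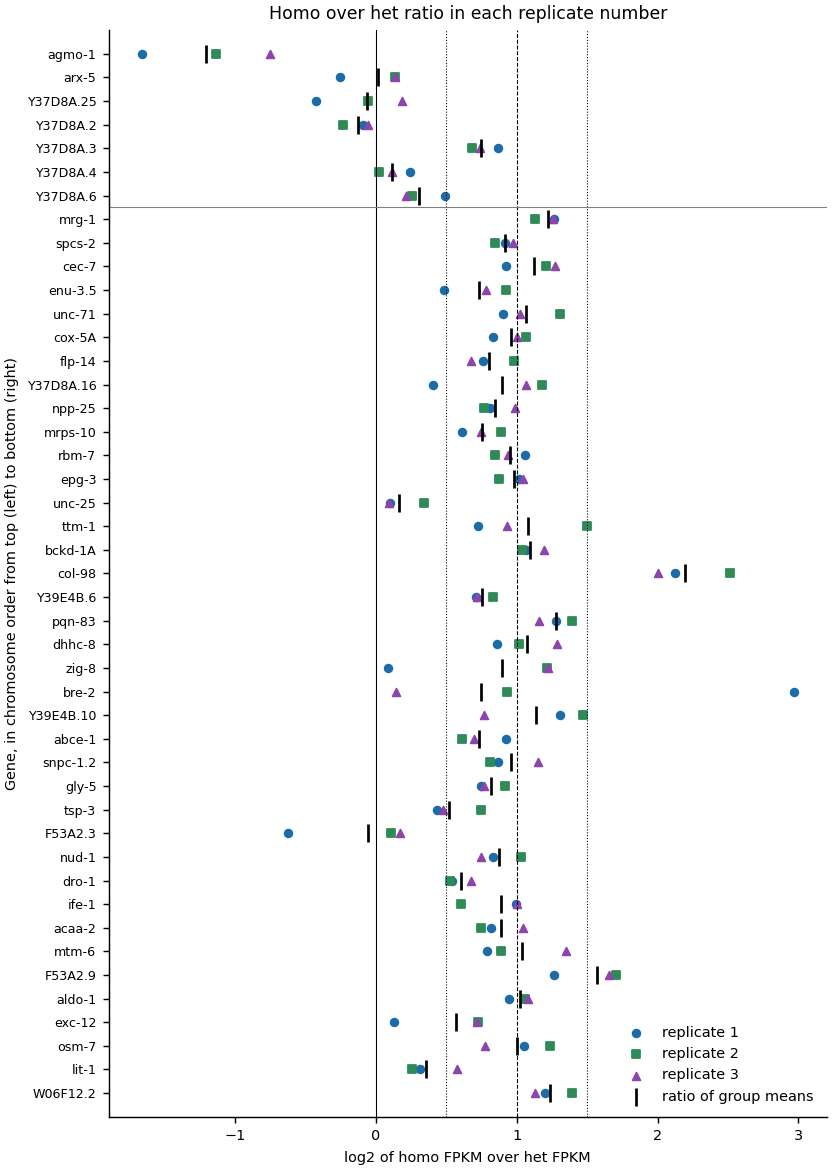
Log2 of homo FPKM over het FPKM (x axis) for each of the 45 genes (y axis, in chromosome order from top to bottom), with a point for each replicate number and a bar for the ratio of group means. Vertical lines mark 0 (solid), 1 (dashed), 0.5 and 1.5 (dotted), and the horizontal line separates Y37D8A.6 from mrg-1. Below that line most points lie around 1. The bars of unc-25, F53A2.3 and lit-1 lie left of 0.5 and those of col-98 and F53A2.9 right of 1.5, and single replicates of other genes also fall outside, such as zig-8 and exc-12 in replicate 1 (0.08 and 0.13) and bre-2 in replicates 1 and 3 (2.97 and 0.14).

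A limma fit across all 12837 genes on log2(FPKM + 1) called 2 of the 45 genes higher in homo larvae at an adjusted p of 0.05, where 0.0779% of all genes were called higher and 0.0389% lower. They were col-98 (log2 fold change 2.21 ± 0.26 SE, adjusted p = 0.034 in limma) and pqn-83 (1.27 ± 0.16 SE, adjusted p = 0.041 in limma). Neither was called when any 1 of the 6 libraries was left out, or after centring the libraries on their medians. With replicate numbers entered as blocks, 31 of the 45 were called higher and 1, agmo-1, lower, where 4.04% and 4.39% of all genes were called. Because the genes were chosen on this contrast, nothing is read from these counts.

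Most genes of other clones in the same stretch were also higher in homo larvae. All 85 other tested genes to the right of agmo-1 also lie to the right of mrg-1. Their median log2 ratio was 0.92. All homo values were above all het values for 65 of them and below for none, and 72 lay between 0.5 and 1.5. The groups overlapped for 20, and 10 lay below and 3 above this range, from -0.66 to 3.71. The 100 tested genes left of agmo-1 had a median of 0.07, with 9 above and 1 below. The 1863 tested genes of chromosome III to the left of agmo-1 had a median of 0.01. For the 100 tested genes next to each of the other 11 chromosome ends the medians lay between -0.08 and 0.03, and between 2 and 11 genes had all homo values above. In the limma fit 1 of the 85 genes was called higher and none lower, and 57 higher and none lower with the replicate block.

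Of the 22 rows with these clone names under the minimum, the 2 nearest to it were Y39E4B.5, with a larval mean of 0.962 FPKM, and F53A2.1, with 0.944 FPKM. On the other side of the minimum bre-2 and F53A2.3 had means of 2.76 and 2.93 FPKM, so no gene lay close above it. The gene models of 15 members overlap another model in the RefSeq table. The authors quantified strand-specific reads, but the strands of these models were not compared, so the division of reads between such genes is uncertain.

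In wild-type embryos most of these genes were well expressed. The median level over the 45 genes was 38.4 FPKM by gene means, or 39.1 FPKM by medians over the 5 libraries, where the median of all genes tested in larvae was 17.5 FPKM by the same medians. That median was 29.0 FPKM for the 100 tested genes left of agmo-1, 27.2 FPKM for the 85 others to the right and 24.6 FPKM for chromosome III. A level above 1 FPKM in all 5 libraries was found for 42 of the 45 genes, a count not taken over all genes tested. By median level 27 of the 45, or 60%, were above the upper quartile of all 20376 genes (27.6 FPKM), where 38.7% of the genes tested in larvae were. A further 15 lay between the median of all genes (4.36 FPKM) and this quartile, and 3 lay under that median. The embryo and larval tables were normalized separately and differ in strain, stage and preparation, so the levels are set side by side without a test.

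Embryo library 5 held the lowest of the 5 values more often than the others, for 19 of the 45 genes and 41.8% of all genes tested. Library 3 was the lowest for 13 of the 45 genes and 9.81% of all genes tested, and library 2 for 6 and 24.1%. For library 4 these values were 5 and 10.9%, and for library 1 they were 2 and 9.81%. The highest value was in library 4 for 14 of the 45 genes and in library 5 for 12. Without it the median over the 45 genes was 39.9 FPKM.

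By median over the 5 libraries, the 3 members highest in embryos were cox-5A, Y37D8A.16 and lit-1. By mean, aldo-1 (225 FPKM) was above Y37D8A.16 (220.2 FPKM). The gene cox-5A was at 1073, 1122, 758, 760 and 1036 FPKM in the 5 libraries, between the lowest het and the highest homo value of larvae. Y37D8A.16 was at 190, 312, 259 and 254 FPKM in libraries 1 to 4 and 85.7 FPKM in library 5, above all 6 larval values in every library. The kinase gene lit-1 was the steadiest of the 3, at 253, 251, 264, 266 and 244 FPKM, against at most 78.8 FPKM in larvae.

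The 3 lowest by median were Y37D8A.3, tsp-3 and col-98. Y37D8A.3 was at 0.313, 1.10, 1.25, 0.773 and 0.0497 FPKM in embryos, where no larval library was under 28.4 FPKM. The collagen gene col-98 was at 2.15, 2.29, 3.57, 6.79 and 2.42 FPKM in embryos, against 223 FPKM or more in larvae. The tetraspanin gene tsp-3 was at 2.25, 2.41, 2.89, 7.68 and 0.802 FPKM, within the larval range apart from libraries 4 and 5.

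All 5 embryo values were above all 6 larval values for 20 of the 45 genes and below them for 6, where the shares over all genes tested were 32.6% and 22.1%. Among the 20 were mrg-1, at 237, 161, 153, 160 and 325 FPKM in embryos, and unc-71, at 91.0, 61.8, 55.3, 72.2 and 60.0 FPKM. The mean of unc-71 in embryos was 22.2 times that of het and 10.6 times that of homo larvae. W06F12.2, at 131, 134, 134, 144 and 57.7 FPKM, arx-5, at 108 to 151 FPKM, and Y37D8A.4, at 62.6 to 82.7 FPKM, were also among them. The 2-fold exception F53A2.3, with the second lowest larval mean, was at 16.7 to 29.3 FPKM in embryos.

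The 6 genes lower in all embryo libraries than in all larval ones were Y37D8A.2, Y37D8A.3, flp-14, bckd-1A, col-98 and aldo-1. Aldolase was at 228, 245, 211, 218 and 221 FPKM in embryos, just under the lowest het value of 246 FPKM and well under the homo values. Y37D8A.2 was at 16.7 to 22.1 FPKM. The other 19 genes overlapped with the larvae. Some of them lay nearer the homo level and some nearer the het level, and these were not counted. The embryo mean of nud-1 was 1.91 times that of het and 1.05 times that of homo larvae, that of osm-7 was 1.79 and 0.896 times, and that of ife-1 was 2.06 and 1.11 times. In the other direction, the embryo mean of acaa-2 was 1.11 and 0.599 times those of het and homo larvae, and that of tsp-3 was 1.10 and 0.772 times. These genes were chosen after their values were seen. Because the tables were normalized separately, nothing is read from which larval level lay nearer. The enzyme gene unc-25, an exception in larvae, was at 14.3, 23.1, 20.2, 38.0 and 3.53 FPKM, with its lowest value in library 5 and overlap with larvae through library 4. The gene agmo-1 was at 31.4, 43.5, 51.3 and 55.5 FPKM in libraries 1 to 4, above all larval values, and at 10.3 FPKM in library 5.

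**Figure D4:**
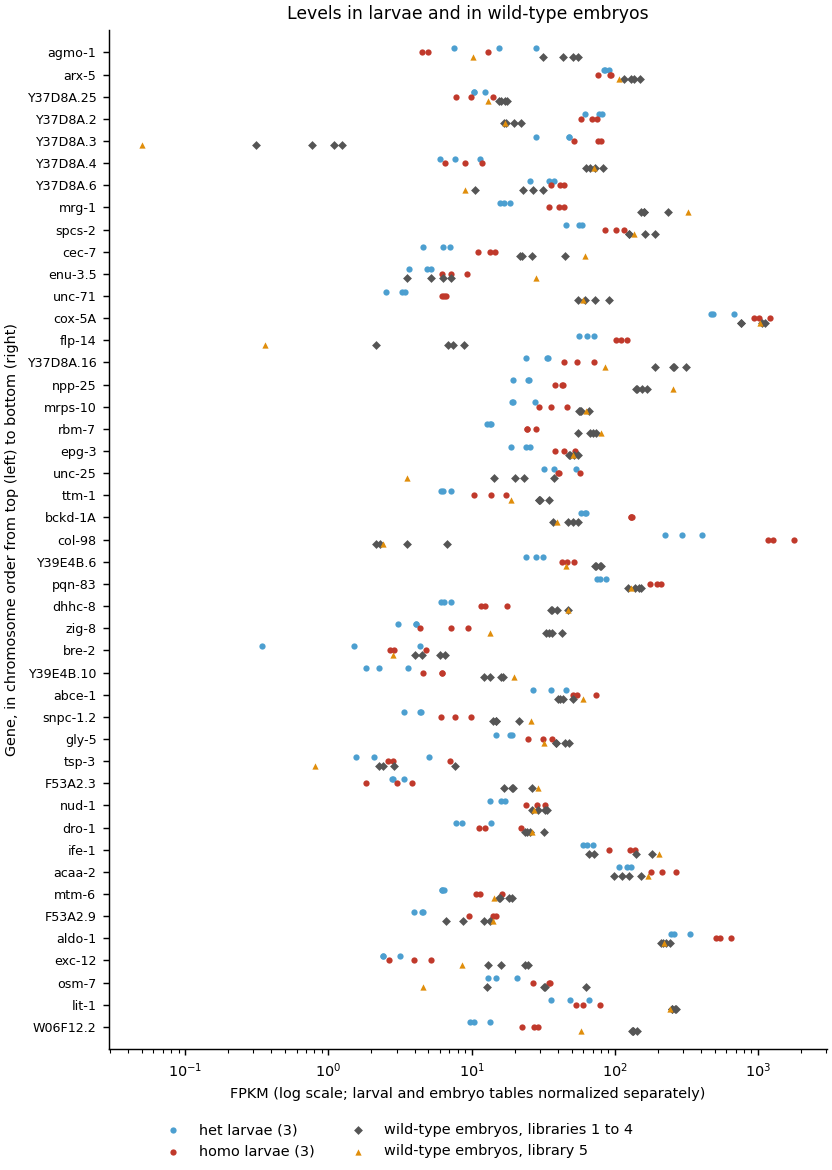
FPKM (x axis, log scale) of each of the 45 genes (y axis, in chromosome order) in 3 het (blue) and 3 homo larval libraries (red) and in 5 wild-type embryo libraries (dark diamonds, with library 5 as orange triangles). Points of 1 gene are set slightly apart for legibility. The embryo values lie above all larval values for 20 genes and below for 6, most clearly for col-98 and Y37D8A.3, and library 5 lies apart from the other embryo libraries for genes such as unc-25 and flp-14.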

How the data were processed

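The authors aligned strand-specific single-end reads of poly(A) RNA to C. elegans genome WS220 with tophat and deposited FPKM values per gene from Cufflinks 2.0.2 (version as given in the submitters' processing notes), in 1 table for larvae and 1 for embryos. Replicates were not pooled. Counts were not analysed here, so the count model of the study was not used, and ChIP peak lists were not used. After 2 repeated rows were left out, 20376 genes remained, of which 19878 matched the RefSeq table of WBcel235. That table gave symbols, chromosome and gene order only, since its build differs, and no sequences were at hand.

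Log2 ratios are of group mean FPKM with no pseudocount. The fit used limma 3.58.1 with trend in R 4.3.3 on log2(FPKM + 1), where the pseudocount understates changes of low genes, for genes with a mean of at least 1 FPKM, with Benjamini-Hochberg adjustment over all 12837 genes. The fit without the block was run on simulated data with independent noise in each library. Those data had no deviation shared within a replicate number, so the simulation does not cover that feature of these libraries. Tables were handled with pandas 2.3.3 in Python 3.11.15. The larval libraries are paired by replicate number, as read from the data and not from the labels: their deviations from group means correlated at 0.44, 0.55 and 0.62 within a number and at -0.48 to -0.02 across numbers.

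The members, lists and range of 0.5 to 1.5 were chosen with earlier results of these data known. Named are exceptions to a 2-fold ratio, the 5 genes nearest it, the 5 highest in larvae, the 3 highest and 3 lowest in embryos, the first and last along the chromosome, the 2 nearest the minimum on each side, and members with roles known in advance. This names 30 of the 45, and the other 15 are given briefly. Alternatives were a pseudocount of 0.1, no filter, a minimum of 5 FPKM, centring on medians, quantile normalization, the replicate block, a fit without the trend, and leaving out each library. Moulting, germline and vitellogenin lists were summed and counted. In the limma fit 0 of the 13, 11 and 2 tested genes were called. With the replicate block 11 moulting genes were called lower, 4 germline genes higher and 0 vitellogenin genes. Over all genes 4.39% were called lower and 4.04% higher with the block.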

Additional observations from a re-analysis of the deposited data

Results flagged for a closer look

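In the 5 embryo libraries, 4 of the 45 genes had 1 value far from the other 4 by Dixon's ratio of gap to range at the 95% level (critical value 0.71). All 4 of these values were in library 5. Chance gives such a value in about 1 in 20 groups. The rule was not applied to all genes tested. Library 5 lay above the other 4 libraries for 12 of the 45 genes and 26.0% of all genes tested. It lay below them for 19 of the 45 and 41.8% of all genes tested. These shares count any margin, so they do not show how often the rule would flag a value over all genes. The gene enu-3.5 was at 28.1 FPKM in library 5 and between 3.53 and 7.22 FPKM in the others. The nucleoporin gene npp-25 was at 257 FPKM, with the others between 141 and 167 FPKM. In the other direction, W06F12.2 was at 57.7 FPKM, with the others between 131 and 144 FPKM, and Y39E4B.6 was at 45.6 FPKM, with the others between 72.7 and 80.2 FPKM. Larval groups of 3 were not tested this way.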

How the results depend on the processing

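The median log2 ratio lay between 0.82 and 0.94 over all alternatives. With a minimum of 5 FPKM only 39 of the 45 genes were left. Without the filter, rows with these clone names under the minimum were added where a larval value was above 0. Leaving out a library gave 0.82 (without homo replicate 3) to 0.94 (without het replicate 3), and the mean of the ratios within replicate numbers, the replicate block for this value, gave 0.87. The count of genes with non-overlapping groups was 32 as reported, 34 with either normalization, 30 with a minimum of 5 FPKM and 38 without the filter. With a library left out it was 33 to 38. Leaving out a library can only keep or raise this count, so its stability cannot be read from these values. Exceptions to a 2-fold ratio numbered 11 to 15 when a library was left out, 10 with a minimum of 5 FPKM and 25 without the filter on low values. Among the 38 genes from mrg-1 on there were 5, a setting chosen after seeing the data.

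Calls of the limma fit depended on the setting. Over all genes 15 were called, 3 without the filter, 36 with quantile normalization, 7 without the trend, 1082 with the replicate block and 0 to 24 with a library left out (0 without het replicate 1 or 2 or homo replicate 1, 24 without het replicate 3). At an unadjusted p of 0.05 there were 1079 in the fit as reported and 786 to 1417 with a library left out. Of the 45 genes 2 were called, 0 without the filter or the trend, 5 with quantile normalization, 32 with the replicate block and 0 with any library left out. Centring on medians also called 2, but these were F53A2.9 and W06F12.2 (adjusted p = 0.038 and 0.029 in limma). There col-98 and pqn-83 were not called (adjusted p = 0.083 and 0.088 in limma). With quantile normalization col-98 was called and pqn-83 was not (adjusted p = 0.044 and 0.051 in limma).

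For single genes named by the rule the sign turned only where the log2 fold change was near 0 and not called, and only with a library left out. That of arx-5 lay between -0.046 and 0.098, that of Y37D8A.4 between -0.081 and 0.34, that of Y37D8A.25 between -0.30 and 0.098, and that of F53A2.3 between -0.25 and 0.14. The cause of these changes was not tested. Embryo levels moved little, with a median of 37.7 to 39.9 FPKM when an embryo library was left out. For bre-2 and tsp-3, at a few FPKM, the spread between the 3 libraries of a group was too wide to resolve a difference without the replicate block. With the block the SE of the log2 fold change fell from 0.43 to 0.14 for tsp-3 and from 0.48 to 0.28 for bre-2. Neither gene was called in either fit, and read totals were not used.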
